A study of Mus musculus with 6 samples.

Results

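The variable segments of the immunoglobulin genes were followed in whole-lung RNA, separately for the heavy, kappa and lambda chains. They were taken as every row whose symbol begins with Ighv, Igkv or Iglv and a number and whose counts add up to at least 20 over the 6 libraries, with no condition on direction or size of change. This left 98 of the 35275 gene rows: 28 heavy, 67 kappa and 3 lambda segments, all annotated as V genes and none as a pseudogene. RNA came from lungs of Balb/c mice 7 days after a tail vein injection of 250000 4T1 cells, a mammary carcinoma line of the mouse, and the lungs had been flushed with 20 mL of PBS. One group received 4T1 WT cells (libraries WT 1 to WT 3) and the other 4T1 cells with a knockout of PD-L1, the ligand of the inhibitory receptor PD-1 (libraries KO 1 to KO 3). KO thus names the injected tumour cells, and no edit of the host mice is labelled. The labels do not say whether each library is 1 mouse or whether the KO line is 1 clone, and p-values therefore reflect the spread between samples that may be technical.

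A B cell assembles the variable part of its antibody by joining 1 V segment to a J segment. In the heavy chain a D segment lies between them. A transcript thus carries the V segment that its clone had joined, and many clones can share the same V segment. The heavy chain pairs with either a kappa or a lambda light chain, and mouse antibodies use kappa far more often. Both B cells and plasma cells transcribe these genes, and plasma cells do so at a much higher level per cell. In bulk RNA, fewer cells and less RNA per cell cannot be told apart, and a segment's count may come from many clones or from a single large one.

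Depth ran from 14711459 to 16932114 counts per library and 17520 to 19156 genes had a count. In CPM, counts scaled by library size, a count of 0 allows up to 0.177 to 0.206 in a library (3 counts, for counting error only). Cd274, the PD-L1 gene, had 62.4, 53.8 and 74.3 CPM in WT 1 to WT 3 and 97.5, 196.9 and 299.6 CPM in KO 1 to KO 3. It was thus higher in every library labelled KO, with a log2 difference of 1.64 ± 0.44 (SE, n = 3 per group) and an adjusted p of 0.203 by edgeR's quasi-likelihood test with Benjamini-Hochberg adjustment. Whole lung includes host cells that can express Cd274, so this row does not check the knockout, and WT and KO below are the labels of the libraries. A difference between the groups cannot be told apart from a difference in tumour load.

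The sequences below are those of the segments that the results turn on, each beside a close relative that is used as a comparison. Each is the last 300 bases of the exon that encodes the variable domain, from GENCODE M21 transcripts on GRCm38, 5′ to 3′ on the strand of the gene. Capitals mark the bases that differ from the partner. Ighv2-9 passed the test in KO lungs and Ighv2-2 was the next most abundant member of its family; over the whole exon of 304 bases they differ at 27 positions (91.1% identity). They lie at chr12:113879096-113879395 and chr12:113588267-113588566, both on the minus strand.
Ighv2-9: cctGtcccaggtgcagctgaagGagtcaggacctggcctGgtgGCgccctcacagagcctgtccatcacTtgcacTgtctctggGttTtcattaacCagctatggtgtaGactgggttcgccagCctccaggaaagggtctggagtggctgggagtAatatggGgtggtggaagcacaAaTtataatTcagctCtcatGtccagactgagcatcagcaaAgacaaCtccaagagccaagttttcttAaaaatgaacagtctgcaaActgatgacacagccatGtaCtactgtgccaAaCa
Ighv2-2: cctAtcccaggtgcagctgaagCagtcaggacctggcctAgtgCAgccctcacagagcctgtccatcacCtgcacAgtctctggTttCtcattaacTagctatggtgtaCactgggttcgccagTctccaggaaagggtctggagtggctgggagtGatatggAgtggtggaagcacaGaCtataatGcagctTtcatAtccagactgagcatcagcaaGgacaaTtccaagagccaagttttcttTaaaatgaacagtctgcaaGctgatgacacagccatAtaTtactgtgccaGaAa
Igkv1-117, the kappa segment that passed, and its closest relative Igkv1-110 differ at 10 of 313 bases of that exon (96.8% identity). They lie on the plus strand at chr6:68121528-68121827 and chr6:68270968-68271267.
Igkv1-117: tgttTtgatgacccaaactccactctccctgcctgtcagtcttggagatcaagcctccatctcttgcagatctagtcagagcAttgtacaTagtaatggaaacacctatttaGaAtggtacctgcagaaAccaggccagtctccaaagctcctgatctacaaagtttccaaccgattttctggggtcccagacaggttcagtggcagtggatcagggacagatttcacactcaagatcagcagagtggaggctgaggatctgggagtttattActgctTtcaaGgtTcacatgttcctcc
Igkv1-110: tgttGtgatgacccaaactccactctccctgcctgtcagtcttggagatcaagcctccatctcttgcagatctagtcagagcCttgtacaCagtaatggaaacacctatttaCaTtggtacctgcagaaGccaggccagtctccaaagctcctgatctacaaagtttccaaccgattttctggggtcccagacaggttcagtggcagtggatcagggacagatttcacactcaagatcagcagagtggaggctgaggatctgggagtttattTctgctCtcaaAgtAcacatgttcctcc
Iglv1 and Iglv2 share 97.0% of 305 bases, with 8 of their 9 differences in the printed stretch. They lie on the minus strand at chr16:19085017-19085316 and chr16:19260401-19260700.
Iglv1: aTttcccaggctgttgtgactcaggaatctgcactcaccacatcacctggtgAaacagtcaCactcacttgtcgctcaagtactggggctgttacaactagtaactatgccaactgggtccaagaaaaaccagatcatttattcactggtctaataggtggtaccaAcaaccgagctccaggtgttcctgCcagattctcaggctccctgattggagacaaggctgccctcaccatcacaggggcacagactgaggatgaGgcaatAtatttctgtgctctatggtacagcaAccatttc
Iglv2: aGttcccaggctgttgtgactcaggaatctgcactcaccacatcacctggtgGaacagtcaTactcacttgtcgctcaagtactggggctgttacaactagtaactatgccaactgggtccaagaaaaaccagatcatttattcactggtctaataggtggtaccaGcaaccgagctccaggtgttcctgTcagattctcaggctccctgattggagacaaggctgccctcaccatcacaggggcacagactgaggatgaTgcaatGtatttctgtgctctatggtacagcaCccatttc
Relatives this close may share or lose reads in the authors' counting. Of all 75-base windows of its whole transcript, 97.2% in Ighv2-9 but 69.1% in Igkv1-117 and 68.8% in Igkv1-110 occur in no other segment of the reference. These windows thus also cover bases outside the printed exon. The median over heavy members was 95.02% and over kappa members 90.9%. Balb/c alleles also differ from this C57BL/6 reference, in both groups alike, so the printed letters are the reference's and not those of the sampled mice.

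RNA of all 3 chains was about 2 times as abundant in lungs with KO cells. Summed over members, heavy V segments had 14.1, 13.9 and 8.86 CPM in WT 1 to WT 3 and 25.9, 23.9 and 33.2 CPM in KO 1 to KO 3. Kappa V segments had 48.1, 53.6 and 76.2 CPM against 126.0, 131.8 and 120.3 CPM. Lambda V segments had 5.14, 3.54 and 5.58 CPM against 11.9, 10.5 and 8.996 CPM. In each chain the lowest KO library lay above the highest WT library. The log2 ratios of the group means were 1.17 for heavy, 1.09 for kappa and 1.14 for lambda. Over the 3 chains together, V segments reached 164.2 ± 1.82 CPM (SD, n = 3) in KO lungs against 76.3 ± 12.5 CPM in WT lungs, a ratio of 2.15. These sums carry no test, since the members were chosen with earlier results of these data known.

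**Figure D1:**
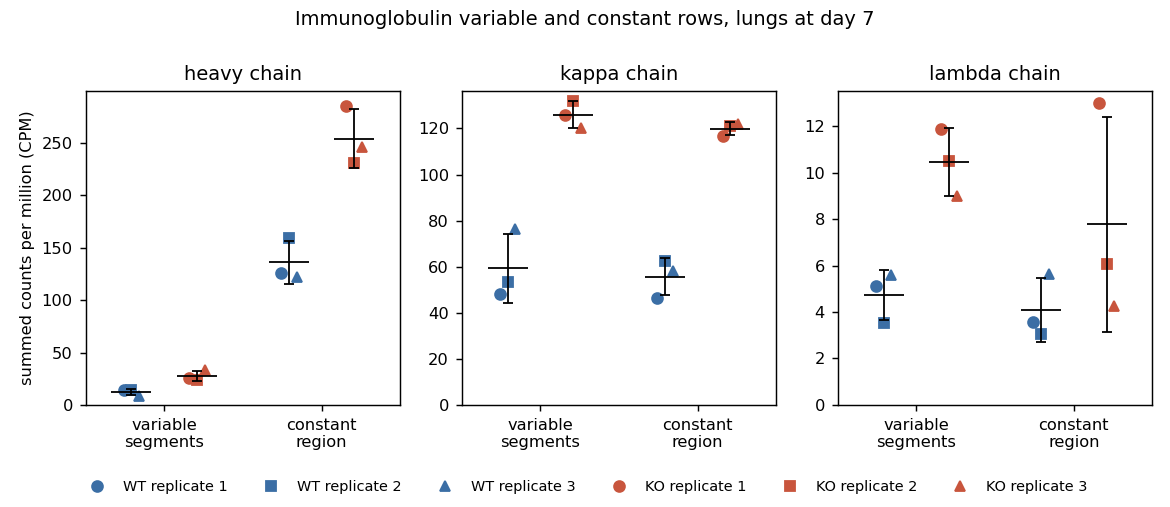
Summed CPM of the variable segments and of the constant-region genes of each chain, by library. Points are libraries, bars the group mean ± SD (n = 3), and each panel has its own scale from 0. KO points lie above all WT points except for the lambda constant gene, where 4.25 CPM in KO 3 is below 5.64 CPM in WT 3.

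The constant genes, to which the joined V segment is spliced, had log2 ratios of summed CPM of 0.90 for heavy, 1.11 for kappa and 0.93 for lambda. The heavy value covers the isotypes with a row, without Ighd, and the lambda value is Iglc2 alone, since Iglc1 and Iglc3 were not analysed here. Igkc, the only kappa constant gene, had 46.6, 62.4 and 58.1 CPM in WT and 116.6, 120.9 and 122.1 CPM in KO lungs. It rose by a log2 difference of 1.11 ± 0.12 (SE, edgeR quasi-likelihood test, Benjamini-Hochberg adjusted p = 0.000964). Ighm, which encodes the heavy chain of IgM and is made by naive B cells, had 90.1, 71.7 and 78.5 CPM in WT against 170.0, 127.4 and 192.0 CPM in KO lungs. It rose by 1.03 ± 0.14 on the log2 scale (SE, adjusted p = 0.00335 by the same edgeR test). Every KO library lay above every WT library for both genes. Igha, the heavy chain of the IgA of mucosal surfaces, had a mean of 53.2 ± 27.0 CPM (SD, n = 3) in WT lungs and of 85.1 ± 31.7 CPM in KO lungs, with overlapping groups and an adjusted p of 0.631 by the same edgeR test. Of 6 tested heavy constant genes, 1 passed, and all 6 had a positive log2 difference. Iglc2, a lambda constant gene, went from 4.09 ± 1.37 to 7.78 ± 4.62 CPM (SD, n = 3), with overlapping groups and an edgeR adjusted p of 0.317 after Benjamini-Hochberg adjustment.

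V and C counts stood in about the same ratio in kappa transcripts, 1.07 ± 0.230 V counts per C count in WT and 1.05 ± 0.0572 in KO lungs (SD, n = 3). In the heavy chain the ratio was 0.0904 ± 0.0200 and 0.110 ± 0.0230, and in lambda 1.19 ± 0.230 and 1.59 ± 0.612, with overlapping groups in each. The lambda ratio sets all 3 V segments against Iglc2 alone, although Iglv1, which gave 63.7% of lambda V counts, is known to join mainly to other lambda constant genes. These are ratios of counts, not of molecules, and take no account of the lengths of V and C exons. Kappa took 77.0 ± 6.47% of all V counts in WT and 76.8 ± 2.65% in KO, and heavy 16.8 ± 6.09% and 16.9 ± 3.18%. Lambda made up 7.56 ± 1.84% of the light-chain V counts in WT and 7.66 ± 0.873% in KO lungs. The 3 chains thus stood in similar proportion in both groups, with more spread between WT libraries. WT 3 had the lowest heavy share, 9.77%, and the highest kappa share, 84.1%.

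Tested one by one, 2 of the 98 segments passed, Ighv2-9 and Igkv1-117, both higher in KO lungs, and none was lower. That is 1 of 28 heavy, 1 of 67 kappa and 0 of 3 lambda segments, while 0.973% of all 17171 tested genes were called higher and 0.32% lower. At an unadjusted p under 0.05 by edgeR, 3 heavy, 12 kappa and 2 lambda segments lay on the higher side and 0 on the lower side (13.8% of all genes in either direction). A positive log2 difference was found in 25 heavy, 63 kappa and 3 lambda segments, 91 of 98 in all, against 51.3% of all genes. The median log2 difference was 1.29 for heavy, 0.99 for kappa and 1.06 for lambda segments, against 0.01 for all genes tested. The interquartile range ran from 0.62 to 1.80 in heavy and from 0.53 to 1.61 in kappa segments. The median SE of 1.02 over the 98 segments, against 0.22 over all genes, shows how imprecise single segments were. The minimum of 20 counts bears on the direction: 29 segments reached it through KO counts alone and 3 through WT counts alone. Of the 98, 62 had 20 or more counts in each group.

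**Figure D2:**
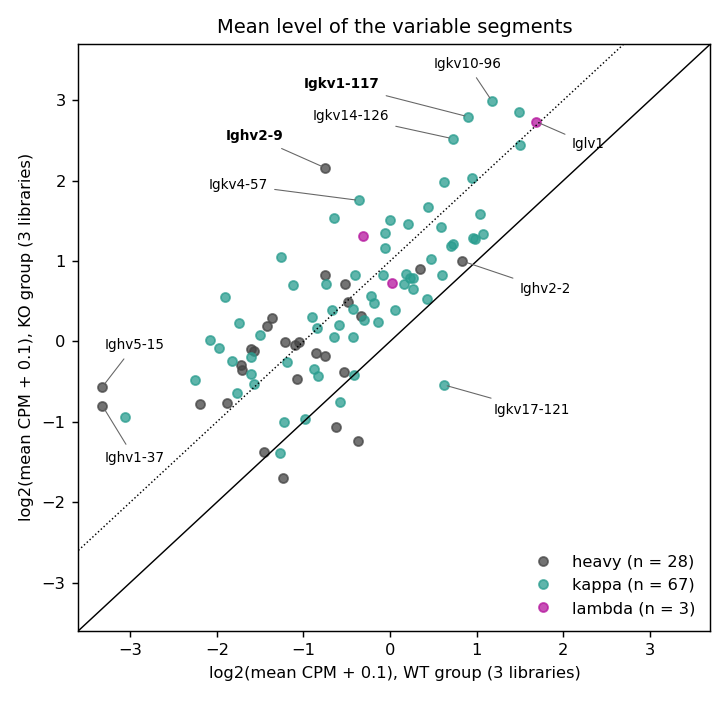
Mean CPM of each segment in WT (x axis) and KO (y axis) lungs, as log2(mean CPM + 0.1), coloured by chain. The solid line marks equal levels, the dotted line a log2 difference of 1, and bold names the 2 segments that passed. Of 98 points, most lie above the solid line, and Igkv17-121 lies farthest below it among the labelled segments.

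In 22 segments the lowest KO library exceeded the highest WT library, 7 heavy, 12 kappa and all 3 lambda, which is 22.4% of the members against 9.81% of all genes tested. The minimum of summed counts bears on this share too. Of these heavy segments, all but Ighv2-9 reached the minimum through KO counts alone. In kappa, Igkv4-61, Igkv4-63 and Igkv8-21 did so as well, while all 3 lambda segments reached it in each group. Igkv17-121 was the single segment with all KO libraries below all WT libraries (8.93% of all genes). The other 75 overlapped. The highest library was a KO library in 25 heavy, 62 kappa and 3 lambda segments. These were spread over the KO libraries: KO 1, KO 2 and KO 3 were highest for 23, 21 and 18 kappa segments, and for 6, 6 and 13 heavy segments.

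Among heavy segments, Ighv2-9 (chr12:113879096-113879541, minus strand) was the most abundant per kb of exon, with 6.71 CPM per kb averaged over all libraries. Its counts were 4, 15 and 5 in WT 1 to WT 3 and 58, 39 and 112 in KO 1 to KO 3. All KO libraries were far above the WT libraries, and KO 3 held 46.7% of its summed CPM. It rose from 0.496 ± 0.338 to 4.36 ± 2.20 CPM (SD, n = 3), a log2 difference of 3.10 ± 0.61 (SE, edgeR quasi-likelihood test, Benjamini-Hochberg adjusted p = 0.0224). The call was lost without WT 1 (adjusted p 0.107), WT 3 (0.0525), KO 2 (0.0512) or KO 3 (0.175) in the same edgeR test, and with limma-voom (0.105). Without Ighv2-9 the heavy sum was 23.3 ± 2.76 CPM in KO lungs against 11.8 ± 2.85 CPM in WT lungs, still with no overlap.

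Its relative Ighv2-2, the heavy segment nearest to the D and J segments among the most abundant ones, had 31, 17 and 29 counts in WT and 30, 41 and 18 in KO lungs. The 2 groups overlapped, with a log2 difference of 0.18 ± 0.59 (SE, adjusted p = 0.944 by the same edgeR test). The printed pair thus holds the segment that passed and one whose groups interleaved. Their difference was not tested. Ighv3-6 had 17, 40 and 0 counts in WT and 42, 24 and 17 in KO. Ighv6-6 had 13, 12 and 3 counts in WT and 7, 5 and 63 in KO. Its high value thus came from KO 3 alone, which held 59.8% of its summed CPM.

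Among the other abundant heavy segments, Ighv2-3, Ighv1-16, Ighv5-17 and Ighv11-2 had log2 differences of 1.07, 0.72, 1.92 and 1.74, none with an adjusted p below 0.516 by the edgeR test. Ighv5-17 and Ighv9-3, both at 1.92, followed Ighv2-9 at the upper end among heavy segments with 60 counts or more, and Ighv2-2, Ighv3-6 (0.58) and Ighv5-6 (0.64) were at the lower end. Ighv9-3 had 12, 0 and 0 counts in WT and 3, 18 and 29 in KO lungs, so its groups overlapped. Ighv1-37 had no count in WT and 3, 16 and 3 counts in KO, at least 7.25-fold higher against a floor of 3 counts over the WT group. Ighv5-15 likewise had no WT count and 8, 13 and 6 counts in KO, at least 8.90-fold higher. Neither passed (adjusted p of 0.26 and 0.195 by the edgeR test), and both entered through KO counts alone. Just above the minimum lay Ighv1-37 with 22 and Ighv7-1 with 25 summed counts, and just below it Ighv5-9-1 with 19 and Ighv9-4 with 17.

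Among kappa segments, Igkv1-117 (chr6:68121046-68121827, plus strand) had 16, 37 and 31 counts in WT and 95, 157 and 68 in KO lungs. The lowest KO library lay above the highest WT library. It rose from 1.77 ± 0.589 to 6.84 ± 3.13 CPM (SD, n = 3), a log2 difference of 1.94 ± 0.43 (SE, edgeR quasi-likelihood test, Benjamini-Hochberg adjusted p = 0.0394). The call was lost without WT 1 (adjusted p 0.161), WT 2 (0.112), WT 3 (0.0588) or KO 2 (0.277) in the same edgeR test, and with limma-voom (0.107).

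Igkv10-96, the kappa segment with the highest mean level per kb (13.9 CPM per kb), had 16, 29 and 56 counts in WT and 76, 129 and 168 in KO lungs. Its groups did not overlap, and its log2 difference of 1.86 ± 0.44 (SE) missed the threshold at an adjusted p of 0.0507 by the edgeR test. It passed with DESeq2, at an adjusted p of 0.00547, and without WT 3 (0.0178) or KO 1 (0.0128) in edgeR. In edgeR it also passed with upper quartile scaling (0.0497), library size alone (0.0461), no filter beyond 1 count (0.000127) and the replicate block (0.00547). It missed the threshold with limma-voom (0.0735), and in edgeR without WT 1 (0.187), WT 2 (0.200), KO 2 (0.201) or KO 3 (0.212). Igkv4-57, named after its values were seen, had 11, 14 and 7 counts against 56, 30 and 70, with a log2 difference of 2.25 ± 0.58 (SE) and an edgeR adjusted p of 0.0728. Igkv1-110, the printed relative of Igkv1-117, had 20, 44 and 63 counts in WT and 68, 140 and 128 in KO. This pair, alike in 96.8% of its bases, thus had non-overlapping groups in both members, with a log2 difference of 1.39 ± 0.42 (SE) and an edgeR adjusted p of 0.13 for Igkv1-110.

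Other abundant kappa segments varied more between libraries of 1 group. Igkv14-126 had 7, 13 and 52 counts in WT and 123, 109 and 31 in KO lungs. WT 3 was above KO 3, and its adjusted p was 0.248 (edgeR). Igkv1-135 had 24, 77 and 30 counts against 76, 39 and 142. Igkv5-43, Igkv6-15 and Igkv3-4 had log2 differences of 1.12, 1.42 and 0.58, with overlapping groups. At the upper end among kappa segments with 60 counts or more were Igkv1-133 (2.96), Igkv8-21 (2.61) and Igkv8-16 (2.4), at edgeR adjusted p of 0.299, 0.255 and 0.44. Igkv1-133 had 65.0% of its CPM in KO 3 and Igkv8-21 had 50.5% in KO 1. At the lower end, Igkv17-121 had 16, 20 and 31 counts in WT and 3, 11 and 14 in KO lungs. Its log2 difference was -1.28 ± 0.87 (SE, adjusted p = 0.575 by the edgeR test), so the groups were apart without passing. Igkv4-57-1 and Igkv4-68 were at -0.01 and 0.10. Just above the minimum were Igkv4-58 with 21 and Igkv9-123 with 29 summed counts, and just below it Igkv3-3 and Igkv5-45 with 19 each.

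The 3 lambda segments all had KO libraries above WT libraries, and none passed. Iglv1 (chr16:19085017-19085500, minus strand) had 45, 49 and 52 counts in WT and 127, 86 and 96 in KO lungs. Its log2 difference was 1.06 ± 0.33 (SE, edgeR adjusted p = 0.142). Iglv2 had 11, 2 and 19 counts against 36, 53 and 22, with an edgeR adjusted p of 0.328, and Iglv3 had 19, 9 and 14 against 22, 22 and 30, with 0.726. Iglv1 made up 53.4 to 81.7% of lambda V counts in a library and was the leading lambda segment in all 6.

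**Figure D3:**
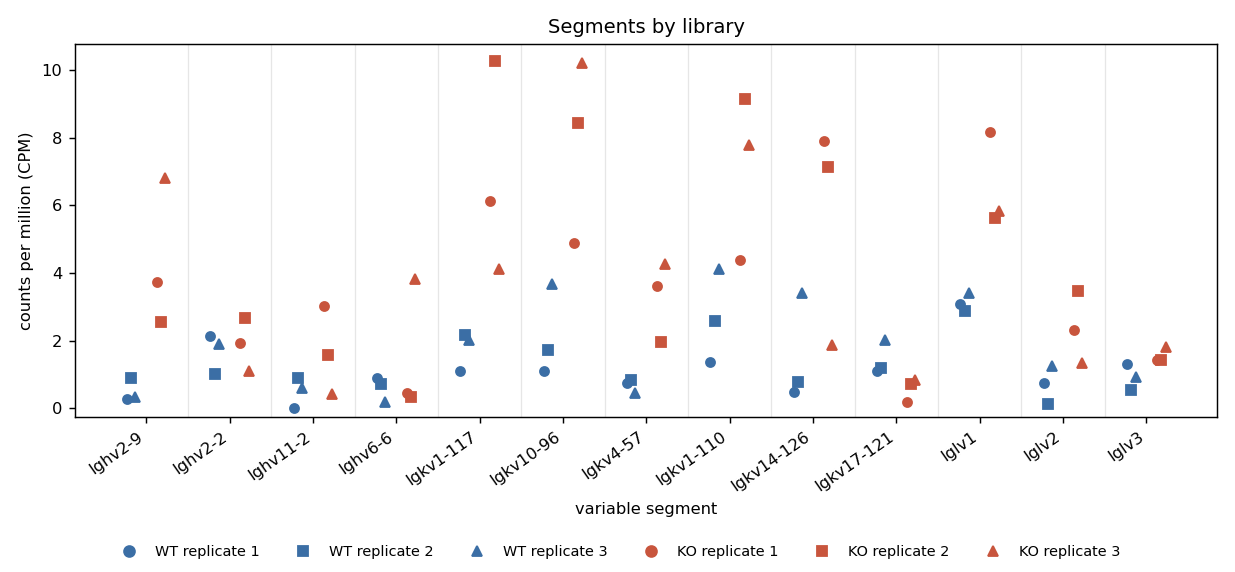
CPM of 13 named segments in each library. Each symbol shape is a replicate number within a group, and equal numbers are not pairs. Ighv2-9, Igkv1-117, Igkv10-96, Igkv4-57, Igkv1-110 and the lambda segments have every KO point above every WT point, whereas Ighv2-2 interleaves and Igkv17-121 has every KO point below.

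Related segments were also summed as families, groups of similar sequence that carry the first number of the symbol. Ighv2, with 5 members in 10 rows, gave 32.1% of heavy counts and went from 3.57 ± 0.758 to 9.28 ± 1.14 CPM (SD, n = 3) without overlap. This separation depends on Ighv2-9. That segment gave 6.81 of the family's 10.6 CPM in KO 3 but 0.274 of 4.25 CPM in WT 1. Ighv1, the largest heavy family with 50 rows, had only 6 members and went from 1.96 ± 1.26 to 3.39 ± 0.697 CPM with overlap. Ighv5 went from 1.71 ± 0.871 to 3.48 ± 0.346 CPM without overlap. Its members Ighv5-12, Ighv5-15 and Ighv5-17 met the minimum through KO counts alone, which bears on this separation. Ighv5-15, with no WT count, gave 0.849 of the family's 3.14 CPM in KO 2, while the family had 2.71 CPM in WT 2. Of 6 heavy families with 2 or more members, 2 did not overlap, Ighv2 and Ighv5, and 4 did, Ighv1, Ighv3, Ighv6 and Ighv7. In kappa, Igkv4 (16 members) went from 8.73 ± 0.841 to 21.3 ± 3.0 CPM and Igkv1 (5 members) from 7.81 ± 2.87 to 21.7 ± 4.41 CPM. Igkv6 (8 members), Igkv3 (7 members) and Igkv10 (2 members) had 14.9, 12.1 and 9.06 CPM in KO lungs against 8.01, 6.60 and 2.69 CPM in WT. None of these 5 kappa families overlapped between groups. Of 11 kappa families with 2 or more members, 7 did not overlap and 4 did, Igkv14, Igkv5, Igkv9 and Igkv17. Igkv14 (4 members) went from 3.10 ± 2.13 to 9.36 ± 4.27 CPM and Igkv5 (3 members) from 4.14 ± 2.84 to 7.46 ± 0.226 CPM. Igkv17 was the one kappa family of 2 or more members whose KO mean was not above its WT mean, with 1.97 ± 0.261 CPM in KO lungs against 2.20 ± 0.675 CPM in WT lungs.

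Segments at all distances along the locus had higher sums in KO lungs. Rows were ordered by distance from the nearest joining segment and cut into 3 groups of equal size. In the heavy locus the nearest group (36 rows, 145 to 767 kb away) held 16 members and 62.3% of heavy counts, and went from 7.13 ± 1.54 to 17.8 ± 1.98 CPM (SD, n = 3). The middle group held 10 members and went from 4.72 ± 1.38 to 8.37 ± 2.59 CPM. The farthest held 2 members and went from 0.433 ± 0.160 to 1.51 ± 0.523 CPM. Both, Ighv1-67 and Ighv8-12, reached the minimum of 20 counts through KO counts alone, which bears on that direction. Ighv1-67 had 9, 0 and 0 counts in WT and Ighv8-12 had 0, 6 and 5. In the kappa locus the 3 groups held 25, 22 and 20 members. They went from 22.2 ± 4.52 to 41.0 ± 3.84 CPM, from 15.3 ± 3.79 to 33.4 ± 6.23 CPM and from 21.9 ± 8.55 to 51.7 ± 8.53 CPM, nearest to farthest. In each of these groups of both loci the lowest KO library exceeded the highest WT library. The minimum bears on this separation too, since 14 of 28 heavy and 15 of 67 kappa members met it through KO counts alone. In the middle heavy group these were Ighv3-8, Ighv6-3, Ighv1-4 and Ighv1-37. Whether the groups stay apart without such members was not tested. As assigned to the C57BL/6 reference, heavy counts thus came mostly from segments near the joining segments, while kappa counts came from the whole locus. Of the 108 heavy rows, 45 had no count in any library. Whether reads of Balb/c alleles were lost at such rows was not tested.

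**Figure D4:**
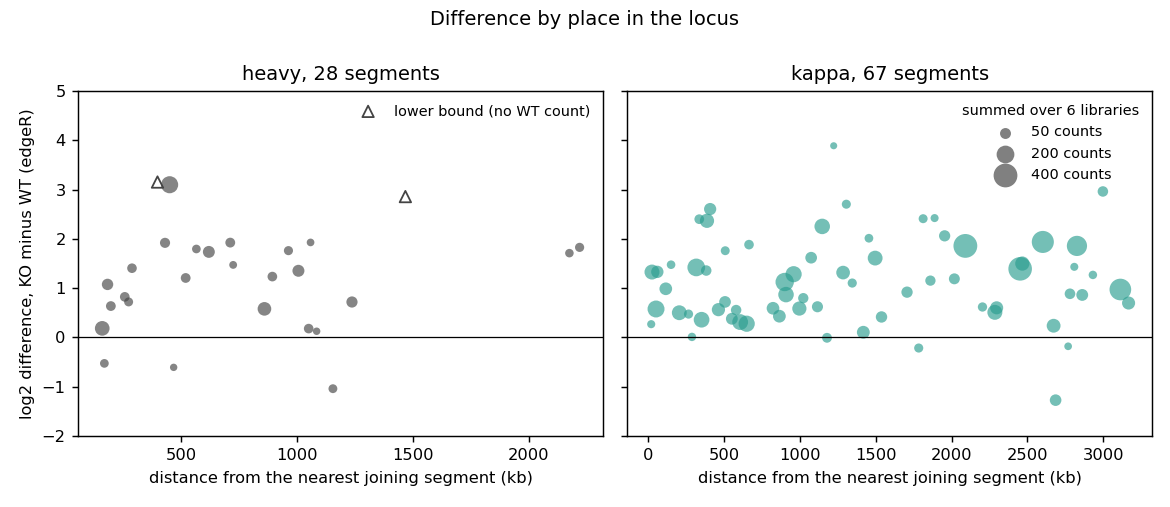
Log2 difference (KO minus WT, edgeR) of each heavy and kappa segment against its distance in kb from the nearest joining segment, with point area by summed count. Open triangles are lower bounds for the 2 heavy segments with no WT count. Segments above 0 occur along the whole of both loci.

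Segment diversity was described by the effective number of segments (the exponential of the Shannon entropy), which is the number of equally used segments that would give the same evenness. Heavy chains had 17.2, 18.5 and 12.3 effective segments in WT 1 to WT 3 and 18.8, 21.3 and 18.0 in KO 1 to KO 3. WT 3 was the least diverse, and the groups overlapped over these members. Over all 108 heavy rows, with no minimum, the numbers were 20.94, 21.95 and 16.21 in WT and 26.9, 27.65 and 23.04 in KO lungs. There the groups did not overlap. These values over all rows were added with the data in view. Kappa members had 43.6, 46.5 and 41.7 effective segments in WT and 49.5, 43.0 and 43.4 in KO lungs. These groups interleaved, as they did over all 103 kappa rows. Over the members, the group means were 16.0 ± 3.30 and 19.4 ± 1.72 for heavy and 43.9 ± 2.41 and 45.3 ± 3.66 for kappa (SD, n = 3). The effective number tends to come out lower where fewer counts were drawn, and it was not adjusted for this. WT libraries had 135 to 235 heavy counts over the members, and KO libraries 365 to 547. The inverse Simpson index, which weights common segments more, was 38.0, 38.0 and 35.3 for kappa in WT and 41.4, 32.0 and 31.6 in KO lungs, so KO 1 was the highest and KO 2 and KO 3 the lowest of all. For heavy it was 14.0 ± 2.81 in WT and 15.3 ± 2.96 in KO, again with overlap.

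The number of segments seen depends on the minimum of 20 counts, which 14 of 28 heavy and 15 of 67 kappa segments met through KO counts alone, against 2 and 1 through WT counts alone. Counts of members seen are therefore a description of these members and not of the whole locus. Heavy segments with at least 1 count numbered 21, 23 and 15 in WT and 28, 27 and 26 in KO. At 135 counts per library, the number in WT 3, the expected number was 20.8, 22.7 and 15 in WT and 24.9, 25.7 and 24.4 in KO lungs. Kappa segments numbered 56, 60 and 56 in WT and 65, 63 and 64 in KO, and at 702 counts 56.9 ± 2.32 and 62.4 ± 1.03 were expected (SD, n = 3). Members at 0 in any WT library numbered 18 heavy and 24 kappa, and in any KO library 3 and 9. Over all 108 heavy rows, with no minimum, 26.6, 28.3 and 22 rows were expected in WT and 36.8, 33.7 and 32.4 in KO lungs at 154 counts per library. Every KO library was above every WT library. Over all 103 kappa rows, 62, 65.4 and 56.2 rows were expected in WT and 71.2, 64.4 and 67.7 in KO lungs at 722 counts, and WT 2 lay above KO 2. The kappa groups thus overlapped once the minimum was dropped, while the heavy groups did not. This count over all rows was added with the data in view.

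**Figure D5:**
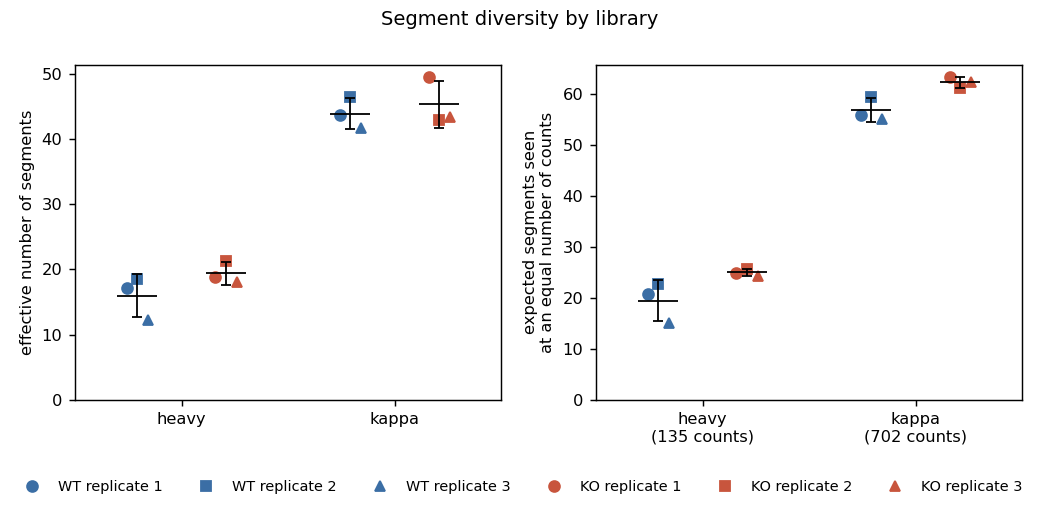
Effective number of segments (left) and expected number of segments at an equal number of counts (right), by chain and library. Points are libraries and bars the mean ± SD (n = 3). Only the 28 heavy and 67 kappa members are counted, of which 29 met the minimum of 20 through KO counts alone. Groups overlap on the left, and on the right KO libraries sit at 24.4 to 25.7 heavy segments.

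No single segment took most of a chain's counts except among the 3 lambda segments. The leading heavy segment was Ighv2-2 in WT 1, WT 3 and KO 2, Ighv3-6 in WT 2, and Ighv2-9 in KO 1 and KO 3. Its share of heavy counts ran from 11.2% in KO 2 to 21.5% in WT 3, and in KO 3 Ighv2-9 held 20.5% (95% Wilson interval 17.3 to 24.1%, counting error only). The leading kappa segment differed in all 6 libraries, Igkv6-17, Igkv1-135 and Igkv1-110 in WT 1 to WT 3 and Igkv14-126, Igkv1-117 and Igkv10-96 in KO 1 to KO 3, with 5.42 to 8.48% of kappa counts. The 5 most used segments of a library held 48.3 ± 6.99% of heavy counts in WT and 46.6 ± 4.79% in KO, and 24.6 ± 0.307% and 27.8 ± 4.73% of kappa counts (SD, n = 3).

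Libraries of 1 group were not alike in which segments they used. The share of heavy use that a pair of libraries had in common was 41.7 to 58.7% within WT, 59.1 to 72.9% within KO and 39.3 to 68.9% between groups. For kappa these ranges were 57.2 to 65.4%, 65.6 to 70.8% and 58.6 to 71.1%. Of each library's 10 leading kappa segments, WT pairs shared 2 to 5, KO pairs 4 to 8 and pairs across groups 3 to 6. A WT library had 135 to 235 heavy and 702 to 1162 kappa counts, a KO library 365 to 547 and 1957 to 2017. Fewer counts lower such overlap by sampling alone, so WT pairs and KO pairs are not compared on it. Counts of a segment varied between libraries of a group by more than counting error. The median ratio to the counting variance was 5.81 over 26 heavy and 7.18 over 66 kappa segments in KO, and 3.66 over 17 heavy and 5.03 over 55 kappa segments in WT. The sets differ and the ratio grows with the counts, so the groups are not compared on it. In 11 of the 98 segments 1 library held over 50% of the summed CPM, a KO library in 10 of them.

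Rows outside the 98 moved with them in part. The 80 heavy rows below 20 counts, 10.4% of heavy V counts, summed to 3.47 ± 0.295 CPM in KO lungs against 1.2 ± 0.126 CPM in WT lungs (SD, n = 3), without overlap. The 36 kappa rows below it had 1.18 ± 0.647 and 2.21 ± 0.535 CPM, with overlap. Joining segments, the short pieces that V segments are joined to, had 1.14 ± 0.501 and 1.55 ± 0.610 CPM for Ighj and 5.07 ± 1.67 and 4.76 ± 2.28 CPM for Igkj, and 0 of 7 tested passed. The V segments of the T cell receptor, a related system in T cells, summed to 29.0 ± 7.61 CPM in KO lungs against 23.4 ± 6.93 CPM in WT lungs over 26 segments. They had a median log2 difference of 0.14, and 0 passed in edgeR. Of the 26, 15 had a positive difference and 4 had all KO libraries above all WT libraries. Over all genes tested these shares were 51.3% and 9.81%.

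Among other genes of B cells, most differences were positive and few passed. Of 18 B cell genes tested, 2 passed, both higher, 17 had a positive log2 difference, and the median was 0.61. These were Fcmr, the Fc receptor for IgM (9.39 ± 1.51 to 23.6 ± 6.55 CPM), and Cd72, an inhibitory B cell receptor (5.72 ± 1.83 to 16.3 ± 2.47 CPM), with edgeR adjusted p of 0.0125 and 0.0140. Ms4a1, which encodes CD20, was at 19.2 ± 3.49 and 37.4 ± 12.8 CPM (edgeR adjusted p = 0.0521). Summed, the 18 genes spanned 264.6 to 367.2 CPM over WT libraries and 409.4 to 506.3 CPM over KO libraries, and none was at 0 in a whole group.

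Of 10 plasma cell genes, 0 passed, 9 were positive and the median was 0.54. The list's sum spanned 425.9 to 469.8 CPM over WT libraries and 474.1 to 552.8 CPM over KO libraries. Jchain, which links IgM and IgA into polymers, was at 23.5 ± 10.8 and 51.8 ± 10.6 CPM (adjusted p = 0.106 by edgeR), and Xbp1, needed for secretion, at 199.7 ± 17.9 and 232.3 ± 25.5 CPM (0.423). Sdc1 and Xbp1 are also made by lung epithelium and carry most of this sum. Of 7 genes of somatic mutation and germinal centres, 6 were tested and 0 passed. Of the recombination genes, Dntt was the one tested of 3 and of the surrogate light chain, which marks precursors of B cells, Vpreb3 was the one tested of 4. Neither passed, and Vpreb2 had no count in any library. The octamer factors that drive V promoters, Pou2f2 and its partner Pou2af1, had log2 differences of 0.38 and 0.39 and did not pass.

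Of 5 pan-leukocyte genes 3 passed, all higher (Cd52, Cd53 and Coro1a), with sums of 973.5 to 1238 CPM over WT libraries and 1274 to 1645 CPM over KO libraries. Of 12 T cell genes 0 passed and 12 were positive, with sums of 188.5 to 290.1 and 267.5 to 373.8 CPM. Red cell genes, a sign of blood left in the lung, had 0 of 6 passed, with sums of 163.6 to 192.2 CPM over WT libraries and 155.6 to 331.7 CPM over KO libraries. Of 7 platelet genes 1 passed, Ppbp, which fell by 2.79 on the log2 scale, and the sums were 50.02 to 75.4 and 14.6 to 27.3 CPM. Of 7 lung tissue genes 0 passed. Among them Scgb1a1, the secretory protein of airway club cells, had 400.8, 308.4 and 797.8 CPM in WT and 1844, 3104 and 1309 CPM in KO lungs, without overlap. Its log2 difference was 2.05 ± 0.53 (SE, edgeR quasi-likelihood test, Benjamini-Hochberg adjusted p = 0.209), while the other 6 lay between -0.12 and 0.17. The part of airway, leukocyte, blood and platelet content in the V segment values was not tested.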

How the data were processed

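Whole-lung RNA of 6 libraries was measured, 3 per group. The authors deposited whole-number read counts per Ensembl gene, for which STAR 2.5 placed the read pairs on mm10 and HTSeq 0.6.1 assigned them to genes, per the labels' protocols. For annotation release, strand and counting mode, settings are not given in the sources used. Symbols and 1-based GRCm38 positions were looked up in GENCODE M21: 34490 of 35275 rows matched, and 0 rows named no gene. Of 348 reference segments 214 had a row. The other 134, of which 122 are pseudogenes, were not analysed here.

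Genes with at least 20 counts over the 6 libraries (17171, all 98 segments among them) were tested with edgeR 4.0.16 in R 4.3.3 (TMM scaling, quasi-likelihood F-test with robust=TRUE, group alone, two-sided). Differences are KO minus WT. Benjamini-Hochberg adjustment covered all 17171 genes, with a threshold of 0.05. SE is the size of the log2 difference divided by the square root of F, and CPM uses TMM-scaled totals. The steps were tested on simulated data. The members, lists and alternatives were chosen with earlier results of these data known.

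Named were all segments that passed, the 8 most abundant heavy and kappa segments, all lambda segments, the 3 highest and 3 lowest log2 differences among those with 60 counts or more, and the 2 nearest on each side of the minimum. Igkc, Ighm, genes of the lists that passed and up to 2 others of a list were named too. Alternatives were other scalings and filters, DESeq2 1.42.0, limma-voom 3.58.1, robust=FALSE, other minimums and diversity measures, leaving out each library, and the replicate number as a block. Leaving out the 3 most abundant segments and taking all rows with no minimum were additions made with the data in view. Same-numbered libraries did not deviate together (correlations of 0.036, -0.0064 and 0.019), so numbers were not treated as pairs. No libraries of a group held identical values, and their counts differed by 14.7 to 27.0 times the counting variance, so each was used as 1 replicate.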

Additional observations from a re-analysis of the deposited data

How the results depend on the processing

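The summed CPM of heavy, kappa and lambda V segments kept its direction under every alternative run, with log2 ratios of 0.98 to 1.28, 0.96 to 1.31 and 0.97 to 1.27, and no heavy, kappa or lambda segment was called lower under any. Counts of called segments were less stable. Kappa segments called higher numbered 6 with no filter beyond 1 count, 2 with upper quartile scaling or library size alone, 3 with DESeq2 and 0 with limma-voom, which also called 0 heavy segments. Leaving out 1 library gave 0 to 3 kappa and 0 to 1 heavy segments. The replicate number as a block, although the numbers do not pair the libraries, gave 3 kappa segments, and 354 genes higher and 132 lower over all genes. Over all genes, 578 were higher and 225 lower with no filter, 357 and 229 with DESeq2, and 27 to 423 and 2 to 191 with 1 library left out. The cause was not tested. The KO minus WT difference in kappa effective number, 1.40, was -2.14 by the inverse Simpson index, 5.48 for the number expected at equal counts and -0.37 for segments with 50 counts or more, and -0.71 to 2.67 with 1 library left out. The kappa ratio of V to C counts, a log2 ratio of -0.02, ran from -0.16 to 0.15 with 1 library left out, so neither has a settled direction. The heavy effective number difference, 3.39 with overlapping groups, was 6.16 without overlap over all heavy rows with no minimum. Segments had a median of 87.5 counts over 6 libraries.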

Other observations

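Ighv11-2 with Igkv14-126 and Ighv12-3 with Igkv4-91 are known pairs of B-1 cell antibodies that bind phosphatidylcholine. These segments were looked at after their values had been seen. Ighv11-2 had 0, 15 and 9 counts in WT 1 to WT 3 and 47, 24 and 7 in KO 1 to KO 3. Igkv14-126 had 7, 13 and 52 counts in WT and 123, 109 and 31 in KO lungs. Igkv4-91 had 8, 9 and 0 counts in WT and 33, 36 and 2 in KO lungs. All of them were highest in KO 1 or KO 2 and low in KO 3, where Ighv2-9 was highest. Ighv12-3, with 10 counts in all, was below the minimum (0, 0 and 1 in WT and 0, 6 and 3 in KO). None of these segments passed in edgeR, with Benjamini-Hochberg adjusted p of 0.524 for Ighv11-2, 0.248 for Igkv14-126 and 0.485 for Igkv4-91.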
